A study of Mus musculus with 48 samples.

Results

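The 7 genes described here are ones whose transcripts have been tied to the growth of fat tissue, followed through the mammary gland of aging mice. They are Lep, Sfrp5, Npr3, Mest, Adamts5, Aldh1a1 and Anxa5, taken by symbol as 7 of the 55487 genes in the deposited matrix, and each symbol occurred once. They were set beside Adipoq, which encodes adiponectin, a hormone made by white adipocytes. The 7 genes were selected on TPM values of these same libraries: earlier results on uninduced Esr1 glands of 24 against 12 months were known, and possibly those on long-induced Esr1 glands of 30 against 24 months. Differences of the 7 genes between ages of uninduced glands, and between the long-induced Esr1 ages, are therefore given as descriptions, with no p-value. Where a count of the 7 that passed, or a place among all genes, is given for these, it supports nothing.

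RNA came from whole thoracic mammary glands of mice that all carried MMTV-rtTA, an activator driven by a mammary tumour virus promoter that needs doxycycline. The responder was tet-op-Esr1, for estrogen receptor alpha, or tet-op-CYP19A1, for aromatase, the enzyme that makes estrogens. In each model, glands were induced for 1 week at 12 or 18 months of age, for 6 or 12 months at 24 months, or for 18 months at 30 months, and uninduced glands were taken at 12, 18 and 24 months. This gives 16 groups of 3 libraries, 48 in all. There were no uninduced glands of 30 months and no group with the drug but no responder, so age and length of induction cannot be told apart at 30 months, nor can drug and transgene anywhere. Replicates are called biological, but whether every library had its own mouse is not stated, and p-values then reflect only how far these libraries scatter.

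The mammary epithelium grows inside a pad of white fat, and most of an aged, non-lactating gland is adipocytes. Leptin is released by adipocytes and tells the brain how much fat is stored, and its transcript rises as fat cells enlarge. Adiponectin, in contrast, is abundant in fat cells of every size. In whole tissue, fewer adipocytes and less transcript per adipocyte cannot be told apart.

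Positions are on mm10, with GENCODE M21 gene bounds. Lep (ENSMUSG00000059201.12, chromosome 6, 29060220 to 29073877, plus strand) encodes leptin. Sfrp5 (ENSMUSG00000018822.7, chromosome 19, 42197971 to 42202252, minus strand) encodes a secreted protein that binds Wnt ligands. Npr3 (ENSMUSG00000022206.7, chromosome 15, 11839896 to 11907287, minus strand) encodes the receptor that clears natriuretic peptides, hormones that promote fat breakdown. Mest (ENSMUSG00000051855.15, chromosome 6, 30723547 to 30748465, plus strand) is an imprinted gene expressed from the paternal copy, whose level in mouse fat tracks the growth of the depot. Adamts5 (ENSMUSG00000022894.6, chromosome 16, 85856173 to 85901828, minus strand) encodes a secreted protease that cuts the proteoglycans aggrecan and versican. Aldh1a1 (ENSMUSG00000053279.8, chromosome 19, 20492715 to 20643465, plus strand) encodes an enzyme that makes retinoic acid. Anxa5 (ENSMUSG00000027712.13, chromosome 3, 36448923 to 36475894, minus strand) encodes a protein that binds phosphatidylserine in the presence of calcium. Adipoq (ENSMUSG00000022878.5) lies on chromosome 16 from 23146536 to 23158028, plus strand.

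The promoters of the first pair are shown because Lep and Sfrp5 are the secreted signals of the set. Each is the 250 bases before the transcript start in RefSeq, build GRCm38.p6, written 5′ to 3′ on the gene's own strand. Lep is at chr6:29059971-29060220 on the plus strand and Sfrp5 at chr19:42202253-42202502 on the minus strand. Capitals mark matches to TTGCGCAA, the palindrome bound by C/EBP factors, which drive fat cell differentiation, and to TATAA, the core of the TATA box.
Lep: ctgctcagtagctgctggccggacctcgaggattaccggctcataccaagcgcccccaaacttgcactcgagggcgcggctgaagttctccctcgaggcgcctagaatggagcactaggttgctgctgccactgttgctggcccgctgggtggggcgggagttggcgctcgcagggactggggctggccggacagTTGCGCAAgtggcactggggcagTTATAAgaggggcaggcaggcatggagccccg
Sfrp5: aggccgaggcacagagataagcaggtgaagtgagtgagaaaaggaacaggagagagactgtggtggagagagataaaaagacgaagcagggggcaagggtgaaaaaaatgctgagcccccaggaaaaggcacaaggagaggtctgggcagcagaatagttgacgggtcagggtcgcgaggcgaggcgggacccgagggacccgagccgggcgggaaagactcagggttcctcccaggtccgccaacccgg
The Lep window holds TTGCGCAA 55 bases before the start, a match found on either strand in 54 of 32851 mouse promoter windows of this length (0.164%). It holds TATAA 2 times, once on each strand and overlapping within TTATAA, the first 32 bases before the start. TATAA is in 22.8% of all windows. The Sfrp5 window holds neither, and no CCAAT, which 33.8% of windows hold. The Npr3 window holds CCAAT 1 time and the Adipoq window 3 times, and the Anxa5 window holds no match. These are letter matches, and none was tested for binding.

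Values are TPM (transcript abundances), which are scaled for transcript length and to 1 fixed total per library. They keep no read depth, so no counting error can be given beyond the stated minimum of 50 M reads. Differences were tested with limma on log2(TPM + 1), over the 20209 genes that reached 1 TPM in 3 or more libraries, and passing means a Benjamini-Hochberg adjusted p under 0.05. All 7 genes met that filter. Libraries had from 11028 to 17605 genes at 1 TPM or more. Ribosomal RNA was estimated as the summed TPM of the genes CT010467.1, AY036118 and Lars2. By this estimate it took over 10% of TPM in 9 libraries (up to 67.2%), which lowers the TPM of every other gene there. All 17 white adipocyte markers were above 0 in every group, as were all 9 luminal epithelium markers, and all 9 skeletal muscle markers were present too, from 164 to 41160 TPM in sum.

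Lep varied 134-fold between libraries, from 4.37 to 588 TPM, and was on average the 335th most abundant of 21823 protein-coding genes. Mest varied 115-fold, Sfrp5 96.2-fold and Npr3 87.1-fold. Aldh1a1 varied 22.0-fold, Adamts5 12.8-fold and Anxa5 8.29-fold, all more than the 5.35-fold range of Adipoq (184 to 985 TPM). Group membership accounted for 82.2% of the log2 variance of Sfrp5 and 82.0% of that of Aldh1a1, but for 68.4% of that of Lep, 63.3% of that of Npr3 and 42.3% of that of Adipoq. Replicates of 1 group thus differed more in Lep, with a within-group SD of 1.11 on the log2 scale, than in Aldh1a1, with 0.54.

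**Figure D1:**
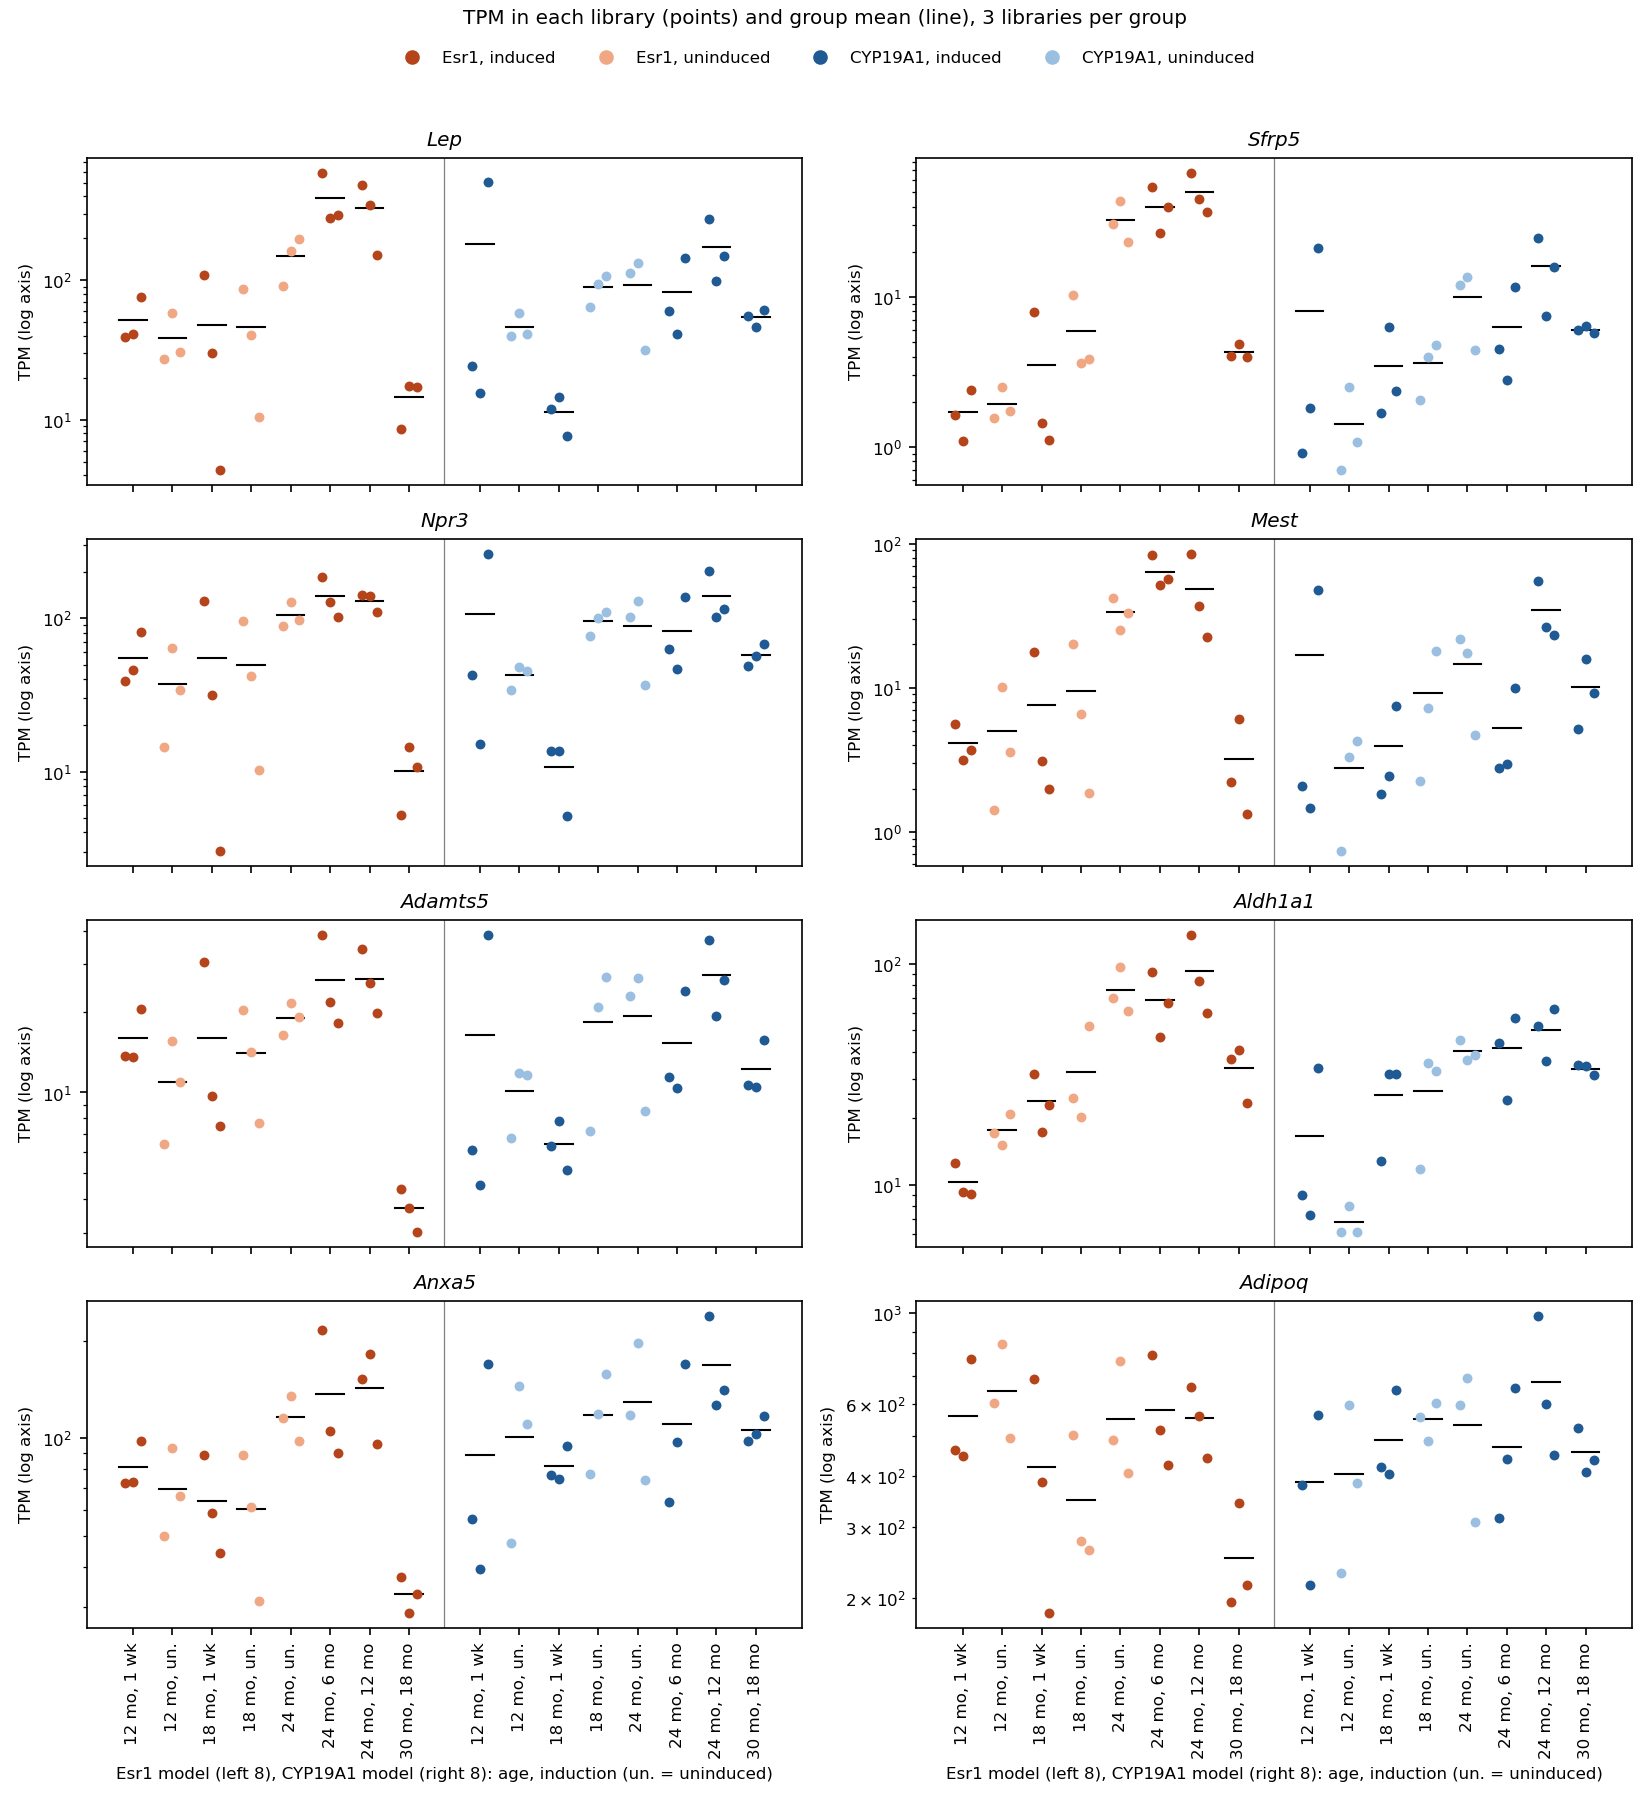
TPM on a log axis in each library (points) and group mean (lines) for the 7 genes and Adipoq, by model, age and length of induction. Lep runs from 4.37 to 588 TPM and Adipoq from 184 to 985 TPM, and the 30-month Esr1 glands have the lowest mean of Npr3, Adamts5, Anxa5 and Adipoq.

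The highest mean of Lep was 387 ± 174 TPM (SD, n = 3, as for all groups) in Esr1 glands induced for 6 months, followed by 327 ± 167 TPM in those induced for 12 months. The lowest was 11.4 ± 3.52 TPM in CYP19A1 glands induced for 1 week at 18 months, next to 14.4 ± 5.03 TPM in the 30-month Esr1 glands. Ordered by mean, 14 of the 15 neighbouring pairs of groups overlapped. The exception separates the 30-month Esr1 glands from the uninduced 12-month Esr1 glands. For Sfrp5, all 15 neighbouring pairs overlapped between its highest mean, 49.9 ± 15.8 TPM in Esr1 glands induced for 12 months, and its lowest, 1.43 ± 0.949 TPM in uninduced 12-month CYP19A1 glands. Npr3, Adamts5 and Anxa5, like Adipoq, had their highest mean in CYP19A1 glands induced for 12 months and their lowest in the 30-month Esr1 glands.

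Across ages of uninduced Esr1 glands, the signals and Aldh1a1 were higher at 24 than at 12 months while Adipoq was not. Sfrp5 had 30.9, 43.8 and 23.4 TPM at 24 months, against 1.56, 2.51 and 1.74 TPM at 12 months. Lep had 91.4, 161 and 198 TPM at 24 months, against 27.2, 58.5 and 30.6 TPM at 12 months. Aldh1a1 had 69.5, 96.6 and 60.8 TPM at 24 months, against 17.2, 15.2 and 21.0 TPM at 12 months. Every 24-month library lay above every 12-month library for these 3 genes. Mest, the imprinted gene, had 42.2, 25.2 and 32.9 TPM at 24 months, against 1.43, 10.1 and 3.59 TPM at 12 months. Npr3 had 89.7, 129 and 98.0 TPM at 24 months, against 14.4, 64.4 and 34.0 TPM at 12 months. The groups did not overlap for any of the 7 genes, and 3.86% of all tested genes were higher without overlap, a share the choice of genes already used. Log2 differences were 3.49 (SE 0.59) for Sfrp5, 2.76 (SE 0.83) for Mest, 2.01 (SE 0.43) for Aldh1a1, 1.94 (SE 0.85) for Lep and 1.68 (SE 0.81) for Npr3. They were 0.81 (SE 0.52) for Adamts5 and 0.76 (SE 0.45) for Anxa5. Adipoq had 488, 763 and 405 TPM at 24 months, against 601, 839 and 494 TPM at 12 months, and these groups overlapped, with a log2 difference of -0.24 (SE 0.42).

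At 18 months the uninduced Esr1 glands were mixed. Lep had 87.0, 40.6 and 10.4 TPM and Npr3 had 96.8, 41.8 and 10.3 TPM, in both cases over a wider span than at 12 months. In replicate 3, the lowest in both, skeletal muscle markers summed to 41160.5 TPM, against 3920 and 7625 TPM in replicates 1 and 2. Its luminal epithelium markers summed to 177 TPM, against 840 and 859 TPM. The part of this in the low values was not tested. Only Sfrp5, with 10.2, 3.62 and 3.88 TPM, lay above its 12-month values without overlap, as did 1.53% of all tested genes. Comparing 24 with 18 months, 5 of the 7 genes were higher without overlap (3.71% of all tested genes), all but Npr3 and Adamts5. Library names of the 24- and 30-month glands are built unlike those of the younger glands. Age and any batch that follows this naming cannot be told apart. The summed level of the 17 white adipocyte markers, Adipoq included, spanned 5544 to 8436 TPM at 24 months and 6786 to 8777 TPM at 12 months, and that of the 9 skeletal muscle markers 7982 to 32395 TPM and 1980 to 15278 TPM. Their part in the age differences was not tested.

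Uninduced CYP19A1 glands showed part of the same picture. Aldh1a1 had 45.4, 36.5 and 38.5 TPM at 24 months, against 6.13, 8.03 and 6.15 TPM at 12 months. Sfrp5 had 12.0, 13.6 and 4.43 TPM at 24 months, against 0.70, 2.50 and 1.08 TPM at 12 months. Mest had 21.9, 17.5 and 4.73 TPM at 24 months, against 0.74, 3.29 and 4.30 TPM at 12 months. The ages did not overlap for these 3 of the 7 genes, with log2 differences of 2.41 (SE 0.43), 2.13 (SE 0.59) and 1.98 (SE 0.83). Of all tested genes 9.31% were higher without overlap. Lep had 113, 133 and 31.7 TPM at 24 months, against 40.1, 58.0 and 41.4 TPM at 12 months, and its groups overlapped through replicate 3 at 24 months, which was the lowest of the 24-month libraries in 6 of the 7 genes. In that library 15.6% of TPM was ribosomal RNA, and without it 6 of the 7 genes and 13.2% of all tested genes were higher without overlap. At 12 months ribosomal RNA was 67.2% in replicate 1 and 22.2% in replicate 3, against 0.122% in replicate 2. After median-of-ratios rescaling, which offsets such shares, Aldh1a1 was 19.7, 5.62 and 5.35 at 12 months in place of 6.13, 8.03 and 6.15 TPM, and Aldh1a1, Sfrp5 and Mest were still without overlap, beside 9.88% of all tested genes. At 18 months, Lep, Npr3 and Aldh1a1 lay above their 12-month values without overlap (1.52% of all tested genes), and 6 of the 7 did so without replicate 1 at 18 months, where ribosomal RNA was 40.3%, beside 10.9% of all tested genes. After rescaling, Lep, Npr3 and Aldh1a1 all overlapped between 18 and 12 months, and only Sfrp5 did not (4.1% of all tested genes), so none of the 3 separations held on that scale. Between 24 and 18 months only Aldh1a1 was higher without overlap (4.48% of all tested genes), and after rescaling only Sfrp5 was (7.47%). The muscle markers moved with age here as well: their sum was 16749 to 26025 TPM at 24 months and 541 to 4524 TPM at 12 months, and all 9 passed the test as higher at 24 months, as did 4.18% of all tested genes. Their part in the values of Aldh1a1, Sfrp5 and Mest was not tested.

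Among long-induced Esr1 glands, those of 30 months after 18 months of induction had far less of all 7 transcripts than those of 24 months after 12 months of induction. Lep had 8.63, 17.5 and 17.2 TPM at 30 months, against 484, 345 and 152 TPM at 24 months. Npr3 had 5.23, 14.5 and 10.7 TPM at 30 months, against 142, 139.8 and 109 TPM at 24 months. Mest had 2.23, 6.10 and 1.33 TPM at 30 months, against 84.8, 36.9 and 22.6 TPM at 24 months. For all of these, the highest 30-month library lay several-fold below the lowest 24-month library. Sfrp5 had 4.01, 4.84 and 4.00 TPM at 30 months, against 67.4, 45.4 and 36.8 TPM at 24 months. Adamts5 had 4.38, 3.70 and 3.02 TPM at 30 months, against 34.2, 25.7 and 19.8 TPM at 24 months. Anxa5 had 37.1, 28.8 and 32.9 TPM at 30 months, against 153, 182 and 96.1 TPM at 24 months. Aldh1a1 differed least of the 7, with 36.9, 40.5 and 23.4 TPM at 30 months and 135, 83.6 and 59.9 TPM at 24 months. Adipoq had 196, 343 and 215 TPM at 30 months, against 658, 560 and 441 TPM at 24 months, so in TPM it too did not overlap. After median-of-ratios rescaling Adipoq was 213, 399 and 377 at 30 months and 615, 514 and 395 at 24 months, which overlapped.

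The log2 difference of Lep, -4.32 (SE 0.85), was the lowest of all tested genes, Npr3 came in place 3 at -3.65 (SE 0.81) and Mest in place 4 at -3.50 (SE 0.83). Sfrp5 differed by -3.23 (SE 0.59), Adamts5 by -2.53 (SE 0.52), Anxa5 by -2.05 (SE 0.45), Aldh1a1 by -1.40 (SE 0.43) and Adipoq by -1.16 (SE 0.42). The median of the 7 was -3.23, against -0.36 over all tested genes. Of the 7 genes, 5 passed as lower (all but Mest and Aldh1a1), as did 0.129% of all tested genes. The genes may have been chosen in part on this contrast, so the count and the places above support nothing. Without overlap and lower were all 7 and 35.6% of all tested genes. After median-of-ratios rescaling the median over all genes was -0.00 and the 7 differences ran from -3.83 (Lep) to -0.90 (Aldh1a1), with Adipoq at -0.65. The number that passed dropped to 0 when any 1 of the 3 libraries of 30 months, or replicate 1 of 24 months, was left out, while the difference of Lep stayed between -4.79 and -3.96. Ribosomal RNA took 50.3% of TPM in replicate 3 of 30 months. Without the libraries high in ribosomal RNA, Lep differed by -4.47, and 5 of the 7 passed, beside 0.421% of all tested genes. After rescaling 4 passed, beside 0.114%. Like the first count, these support nothing.

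Marker levels of other cell types differed between these groups as well. The white adipocyte markers summed to 3265 to 5250 TPM at 30 months, against 5860 to 9021 TPM at 24 months. Adipocyte progenitor markers summed to 170 to 190 TPM at 30 months, against 252 to 381 TPM at 24 months, and all 9 were above 0. Basal and myoepithelial markers summed to 136 to 213 TPM at 30 months, against 300 to 389 TPM at 24 months, and endothelium markers to 64.5 to 99.4 TPM at 30 months, against 111 to 149 TPM at 24 months. These 4 sums did not overlap between the ages, while luminal epithelium markers, at 183 to 560 TPM at 30 months and 188 to 599 TPM at 24 months, did. The sums given are TPM without rescaling. Ribosomal RNA, at 50.3% of TPM in replicate 3 of 30 months, lowers every sum in that library. Median-of-ratios rescaling divides by 0.919, 0.86 and 0.571 at 30 months and by 1.07, 1.09 and 1.12 at 24 months. On that scale the white adipocyte, progenitor and endothelium sums overlap between the ages, and the basal and myoepithelial sums do not. Macrophage markers summed to 131 to 306 TPM at 30 months and 287 to 388 TPM at 24 months, and skeletal muscle markers to 15172 to 28417 TPM and 8651 to 22983 TPM. The part of these shifts in the levels of the 7 genes was not tested.

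**Figure D2:**
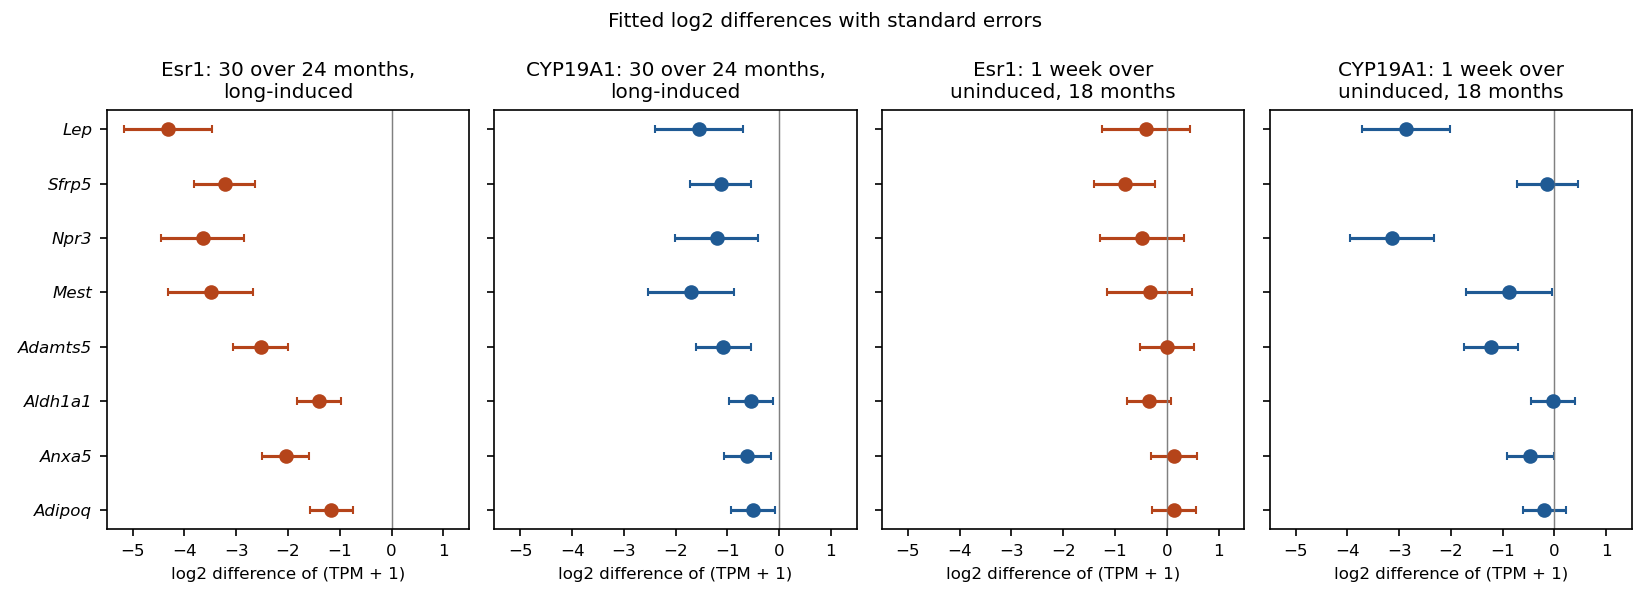
Fitted log2 differences of (TPM + 1) with standard errors for the 7 genes and Adipoq in 4 comparisons. In long-induced Esr1 glands of 30 over 24 months the values run from -4.32 (Lep) to -1.16 (Adipoq), and after 1 week of CYP19A1 at 18 months Lep and Npr3 stand apart at -2.87 and -3.13 from Adipoq at -0.19.

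The matching comparison in CYP19A1 glands had smaller differences in the same direction. Lep had 54.9, 46.1 and 61.4 TPM at 30 months, against 275, 98.6 and 148 TPM at 24 months. Mest had 5.19, 15.9 and 9.18 TPM at 30 months, against 54.9, 26.4 and 23.4 TPM at 24 months. Sfrp5 had 6.05, 6.36 and 5.76 TPM at 30 months, against 24.9, 7.49 and 15.8 TPM at 24 months. The 3 libraries of 30 months lay below all 3 libraries of 24 months in each case, and were close together in Sfrp5 but not in Mest. This held for all 7 genes, beside 21.6% of all tested genes, and not for Adipoq, with 523, 408 and 436 TPM at 30 months and 985, 600.1 and 450 TPM at 24 months. After median-of-ratios rescaling Anxa5 was 102, 105 and 120 at 30 months and 186, 123 and 118 at 24 months, which overlapped. Aldh1a1 overlapped too, at 35.9, 34.9 and 32.4 at 30 months and 40.8, 35.5 and 52.1 at 24 months. Log2 differences were -1.71 (SE 0.83) for Mest, -1.55 (SE 0.85) for Lep, -1.21 (SE 0.81) for Npr3, -1.13 (SE 0.59) for Sfrp5 and -1.08 (SE 0.52) for Adamts5. They were -0.61 (SE 0.45) for Anxa5, -0.54 (SE 0.43) for Aldh1a1 and -0.50 (SE 0.42) for Adipoq, with a median over all genes of -0.18. None of the 7 passed limma's test (adjusted p = 0.969 for each), nor did any tested gene (0%), although Mest and Adamts5 had an unadjusted p under 0.05, as did 332 genes. The difference between the models, Esr1 minus CYP19A1, was -2.77 (SE 1.20) for Lep, -2.44 (SE 1.14) for Npr3 and -2.09 (SE 0.84) for Sfrp5. It passed over all genes for 0 of the 7, beside 0.00495% of all tested genes, so the larger values in Esr1 glands were not shown to differ from those in CYP19A1 glands.

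In CYP19A1 glands of 18 months, 1 week of induction came with low Lep and Npr3. Lep had 12.0, 14.6 and 7.62 TPM after 1 week, against 64.6, 94.3 and 107.7 TPM in uninduced glands. Npr3 had 13.6, 13.5 and 5.16 TPM after 1 week, against 76.4, 101 and 110.2 TPM in uninduced glands. All 3 induced libraries lay below all 3 uninduced libraries for both genes, as for 1.66% of all tested genes. Log2 differences were -3.13 (SE 0.81, 95% interval -4.77 to -1.50) for Npr3 and -2.87 (SE 0.85, -4.59 to -1.15) for Lep, places 3 and 4 from the bottom among the 20209 genes. Limma's unadjusted p was 0.000398 for Npr3 and 0.00167 for Lep, but adjusted p = 0.931 for Npr3 and 1 for Lep, and 0 of the 7 genes passed, beside 0% of all tested genes and 295 genes at an unadjusted p under 0.05. Leaving out any 1 library of the comparison kept Lep between -3.08 and -2.63 and Npr3 between -3.34 and -2.72.

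The other 5 genes did not follow Lep and Npr3 that far. Adamts5 had 6.32, 7.86 and 5.14 TPM after 1 week, against 7.19, 20.9 and 27.0 TPM without, and its groups overlapped through the uninduced replicate 1, where ribosomal RNA was 40.3%. Its log2 difference was -1.22 (SE 0.52). Sfrp5 had 1.69, 6.31 and 2.34 TPM after 1 week, against 2.05, 3.95 and 4.80 TPM without, a difference of -0.14 (SE 0.59). Mest had 1.84, 2.43 and 7.50 TPM after 1 week, against 2.26, 7.27 and 18.0 TPM without, also with overlap (-0.88, SE 0.83). Aldh1a1 differed by -0.03 (SE 0.43) and Anxa5 by -0.47 (SE 0.45), and Adipoq had 419, 404 and 647 TPM after 1 week, against 557, 487 and 604 TPM without (-0.19, SE 0.42). The white adipocyte markers summed to 6595 to 12032 TPM after 1 week and 6531 to 8884 TPM without. In Esr1 glands of the same age Lep had 109, 30.1 and 4.37 TPM after 1 week, against 87.0, 40.6 and 10.4 TPM without, and the groups overlapped (-0.40, SE 0.85). The difference between the models, Esr1 minus CYP19A1, was 2.47 (SE 1.20) for Lep and 2.65 (SE 1.14) for Npr3, and limma called 0 of the 7 (0% of all tested genes, 171 genes at an unadjusted p under 0.05).

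At 12 months, 1 library decided the CYP19A1 values. Lep had 24.4, 15.6 and 508 TPM after 1 week, against 40.1, 58.0 and 41.4 TPM in uninduced glands. Replicate 3 after 1 week was also far above the other 2 in Npr3 (264 TPM), Mest (47.5 TPM), Sfrp5 (21.3 TPM) and Adamts5 (38.6 TPM), while its Adipoq, 564 TPM, was within the range of uninduced glands. Its ribosomal RNA share was 36.7%, and that of the other 2 induced libraries 43.7% and 49.8%. The log2 difference of Mest was 1.07 (SE 0.83) with this library and -0.30 without it, and that of Sfrp5 was 1.09 (SE 0.59) with it and 0.0048 without it. Lep differed by 0.35 with it and -1.19 without it, Npr3 by 0.40 and -0.70, and Adamts5 by 0.10 and -0.79. None of the 7 passed, beside 0% of all tested genes, and Aldh1a1 alone had an unadjusted p under 0.05 (log2 difference 0.88). It too was far higher in replicate 3, with 8.97, 7.32 and 33.85 TPM after 1 week, against 6.13, 8.03 and 6.15 TPM in uninduced glands. In Esr1 glands of 12 months, Aldh1a1 had 12.5, 9.28 and 9.13 TPM after 1 week, against 17.2, 15.2 and 21.0 TPM without, which did not overlap (1.88% of all tested genes were lower without overlap), with a log2 difference of -0.73 (SE 0.43, limma adjusted p = 0.75). There too 0 of the 7 passed, against 0.0099% of all tested genes, and the median over all genes was 0.22. The uninduced 12-month Esr1 libraries are among those on which the genes were chosen, which limits what this Esr1 comparison can show.

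After long induction at 24 months none of the 7 genes passed the test against uninduced glands, though Lep and Mest were high in some groups. In Esr1 glands Lep had 91.4, 161 and 198 TPM uninduced, 588, 281 and 292 TPM after 6 months and 484, 345 and 152 TPM after 12 months. All 3 libraries of 6 months lay above the uninduced libraries, while those of 12 months overlapped them. Log2 differences from uninduced glands were 1.34 (SE 0.85) at 6 months and 1.04 (SE 0.85) at 12 months. Mest had 83.0, 51.9 and 56.6 TPM after 6 months, against 42.2, 25.2 and 32.9 TPM uninduced, also without overlap, as for 1.31% of all tested genes. After median-of-ratios rescaling Mest was 69.2, 46.4 and 74.6 after 6 months and 47.5, 21.4 and 33.9 uninduced, which overlapped. Lep did not overlap on that scale, with a lowest value of 251 after 6 months and a highest of 204 uninduced. In CYP19A1 glands Lep had 113, 133 and 31.7 TPM uninduced, 60.1, 41.4 and 144 TPM after 6 months and 275, 98.6 and 148 TPM after 12 months, with overlap throughout. Mest had 54.9, 26.4 and 23.4 TPM after 12 months, above the uninduced 21.9, 17.5 and 4.73 TPM, as for 6.78% of all tested genes. After rescaling it was 42.9, 25.7 and 19.6 after 12 months and 21.1, 15.1 and 4.92 uninduced, which overlapped. In Esr1 glands limma called 0 of the 7 at 6 months (0% of all tested genes) and at 12 months (0.00495%). In CYP19A1 glands it called 0 of the 7 at 6 months (0%) and at 12 months (0.0198%). No member had an unadjusted p under 0.05 in these 4 comparisons, and the same held after 1 week in Esr1 glands of 12 and 18 months. The 6- and 12-month comparisons of a model share their uninduced libraries. The uninduced 24-month Esr1 libraries are among those on which the genes were chosen, which limits what these Esr1 comparisons can show.

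Set against each other over their long-induced glands, the models were farthest apart in Sfrp5 relative to its error. It averaged 31.4 ± 23.2 TPM in Esr1 glands and 9.48 ± 7.0 TPM in CYP19A1 glands (SD, n = 9 libraries each over 3 groups), a log2 difference of 1.29 (SE 0.34). At 24 months its libraries had 26.7 to 67.4 TPM in Esr1 glands and 2.79 to 24.9 TPM in CYP19A1 glands, and at 30 months 4.00 to 4.84 TPM and 5.76 to 6.36 TPM. So the higher level was in the 24-month glands, while the 30-month Esr1 glands were below those of CYP19A1. Sfrp5 was the only 1 of the 7 under limma's threshold, beside 4.15% of all tested genes. Since the long-induced Esr1 glands may be among those on which it was chosen, the count supports no difference. It was 0 with a pseudocount of 0.1, and without CYP19A1 replicate 2 of 6 or of 12 months. In uninduced glands Sfrp5 averaged 13.5 ± 15.5 TPM in Esr1 glands and 5.02 ± 4.66 TPM in CYP19A1 glands (log2 0.84, SE 0.34). Aldh1a1 averaged 41.9 ± 29.0 TPM in Esr1 glands and 24.5 ± 16.1 TPM in CYP19A1 glands (0.81, SE 0.25). None of the 7 passed in uninduced glands, beside 2.95% of all tested genes. The uninduced Esr1 glands of 12 and 24 months are among those on which the genes were chosen, so these values support no difference.

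Whether the 7 genes vary together was asked from each library's deviation from its group mean on the log2(TPM + 1) scale, which removes every difference between groups. Lep and Npr3 went together most closely, with Pearson's r = 0.938 and Spearman's rho = 0.916 over 48 libraries (permutation within groups, p = 1e-05, the smallest that 100000 permutations give, and 2.55e-05 adjusted over 28 pairs). Without the 2 libraries farthest out in Lep, r was 0.92. It was 0.954 within the 24 libraries of 12 and 18 months and 0.890 within the 24 of 24 and 30 months. Lep also went with Adamts5 (r = 0.886), Sfrp5 (r = 0.850), Mest (r = 0.793) and Anxa5 (r = 0.780), all with an adjusted p of 6.22e-05 or 2.55e-05 by the same permutation test. Its r with Adipoq was 0.733 (rho = 0.669, permutation p = 4e-05, adjusted 6.22e-05), and 0.680 after rescaling. Of the 28 pairs among the 7 genes and Adipoq, 24 passed. The share of passing pairs among other genes was not computed, so this count does not set these genes apart. All libraries share the scaling to 1 total, so ribosomal RNA in a library lowers all of these genes at once.

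**Figure D3:**
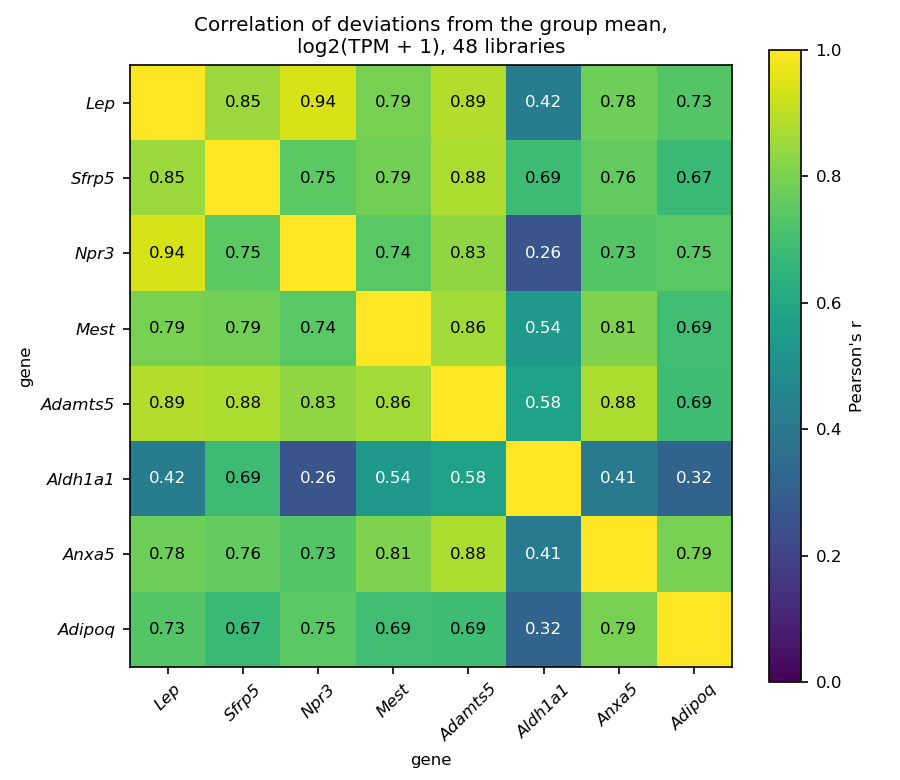
Pearson's r between deviations from the group mean of log2(TPM + 1) over 48 libraries, for each pair of the 7 genes and Adipoq. Lep and Npr3 have the highest value (0.94), and the lowest is 0.26, between Aldh1a1 and Npr3.

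Aldh1a1 had the 4 pairs that did not pass. Its r was 0.263 with Npr3 (permutation p = 0.269, 0.269 adjusted), 0.419 with Lep (p = 0.0863, 0.0895 adjusted), 0.412 with Anxa5 (p = 0.0558, 0.0625 adjusted) and 0.320 with Adipoq (p = 0.0702, 0.0756 adjusted). Its highest r was 0.687, with Sfrp5 (permutation p = 0.00045, 0.000573 adjusted), which was 0.592 on rescaled values. It also passed with Adamts5 (r = 0.575, permutation p = 0.00887, 0.0108 adjusted) and Mest (r = 0.541, permutation p = 0.0137, 0.016 adjusted). On rescaled values r was 0.5065 with Adamts5 and only 0.303 with Mest. Not centring on group means, Sfrp5 and Aldh1a1 reached r = 0.865 over the 48 libraries, with 0.664 among the 12- and 18-month and 0.899 among the 24- and 30-month libraries.

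**Figure D4:**
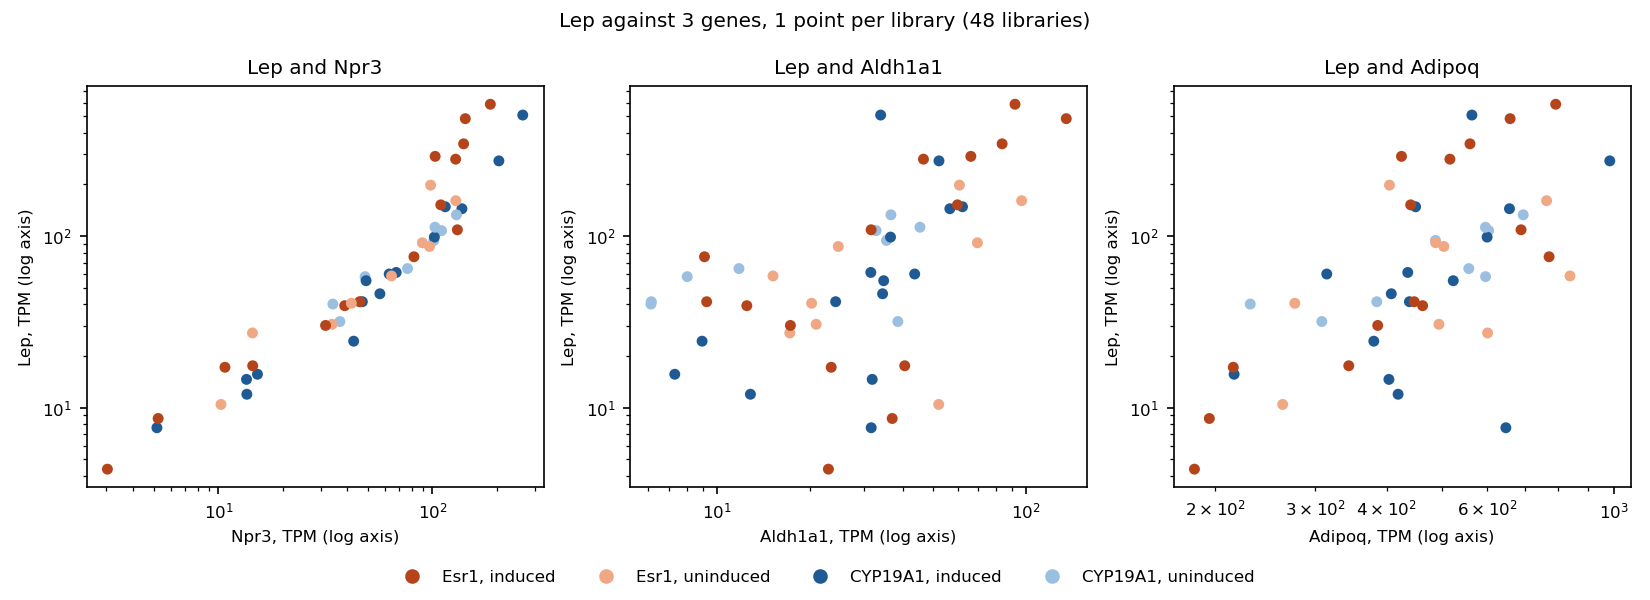
Lep against Npr3, Aldh1a1 and Adipoq, in TPM on log axes, 1 point per library and 48 libraries in each panel. Lep follows Npr3 closely across both models (r = 0.944 on the log2 scale), while libraries with 647 and 658 TPM of Adipoq had 7.62 and 484 TPM of Lep.

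Over all 48 libraries and 13413 genes, the genes most like Lep in log2 level were Cavin3 (r = 0.943), which encodes a caveola protein, Slc6a13 (r = 0.927), a GABA transporter gene, Lgals1 (r = 0.923), for galectin-1, Prr32 (r = 0.920) and Syp (r = 0.917), for synaptophysin. Adipoq came in place 381 for Lep (r = 0.635). For Npr3 they began with Prr32 (r = 0.959) and Sncg (r = 0.952), the gamma-synuclein gene, which is abundant in white fat. For Sfrp5 they were Myl4 (r = 0.893), Abat (r = 0.886), Gabrr2 (r = 0.882), Unc79 (r = 0.880) and Cdkl4 (r = 0.872), with Adipoq in place 1593. For Mest, Klf14 (r = 0.925) came first, a transcription factor gene, and for Anxa5 it was Mcam (r = 0.942). For Aldh1a1 they included Synpo2 (r = 0.947), Fgf13 (r = 0.920), Sgcd (r = 0.852) and Cryab (r = 0.842), with Adipoq in place 4833. These are descriptions over libraries that share groups and scaling.

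Relative to Adipoq in the same library, the order of groups changed for Lep. Ratios are of (TPM + 1), which raises them where a gene is low. This applies to Sfrp5 at 12 months (1.56 to 2.51 TPM in uninduced Esr1 glands), so its differences between ages are smaller than in TPM alone. In Esr1 glands of 24 months Lep stood at log2 ratios of -1.89 ± 0.75 uninduced, -0.62 ± 0.23 after 6 months of induction and -0.89 ± 0.57 after 12 months. In the 30-month Esr1 glands it was -4.05 ± 0.42, close to the -4.07 ± 0.31 of uninduced 12-month Esr1 glands. The lowest ratio was in CYP19A1 glands after 1 week at 18 months, at -5.32 ± 0.81, against -2.64 ± 0.39 uninduced, and these ranges did not overlap (-6.23 to -4.70 and -3.09 to -2.36). For Sfrp5 the ratio was -7.76 ± 0.23 in uninduced Esr1 glands of 12 months, -5.72 ± 0.21 at 18 months and -4.03 ± 0.08 at 24 months, and no 2 of these ages overlapped. In uninduced CYP19A1 glands it was -7.35 ± 0.23 at 12 months, -6.95 ± 0.49 at 18 months and -5.64 ± 0.17 at 24 months. For Aldh1a1 the 30-month Esr1 glands, at -2.86 ± 0.42, lay at the level of the 24-month ones after 12 months of induction, at -2.62 ± 0.30, and their ranges overlapped.

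**Figure D5:**
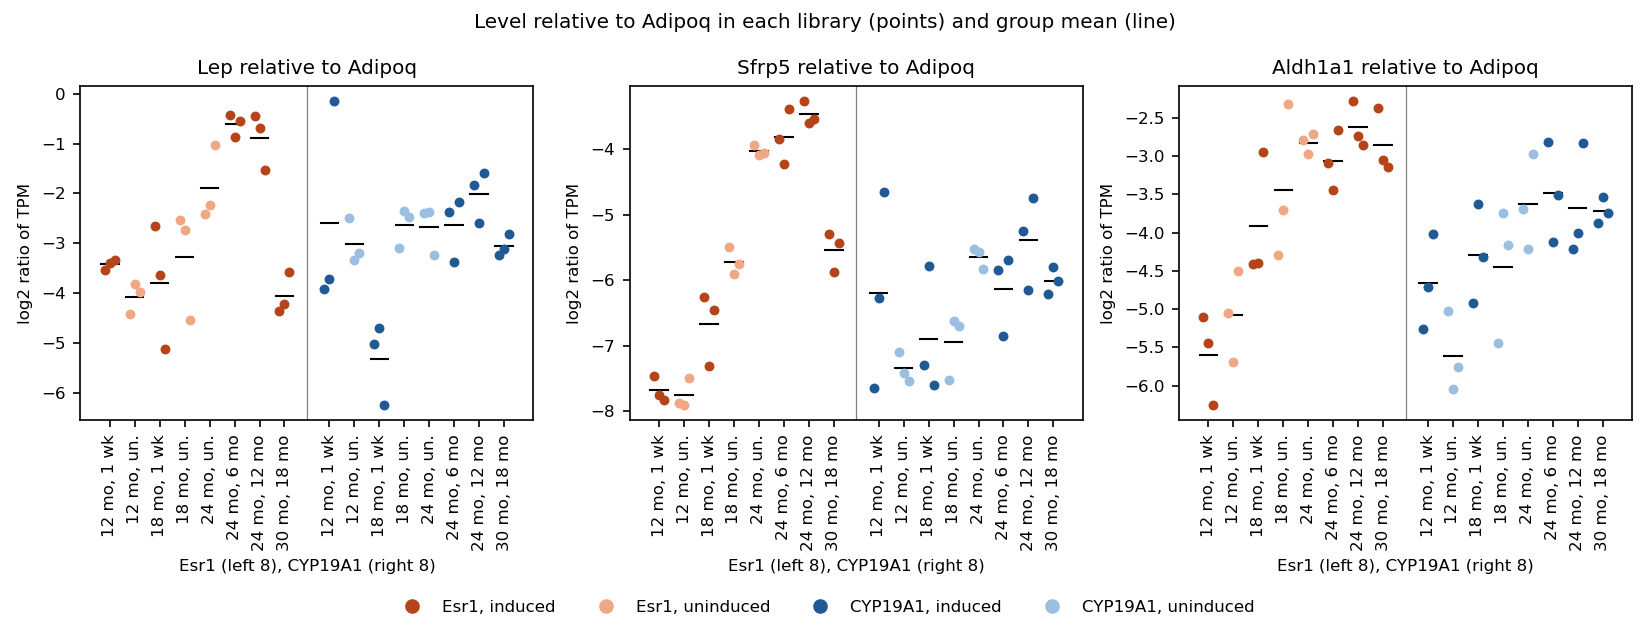
Log2 ratio of Lep, Sfrp5 and Aldh1a1 to Adipoq, each as TPM + 1, in each library (points) and group mean (lines). Lep averages -5.32 in CYP19A1 glands after 1 week at 18 months, while the ratio of Sfrp5 in uninduced Esr1 glands is -4.03 at 24 months and -7.76 at 12 months.

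Genes of the same pathways were mostly below the test's threshold. In long-induced Esr1 glands of 30 against 24 months, 0 of the tested members of the 16 lists passed. All 11 tested genes of a list linked to adiposity in mice were lower, with a median log2 difference of -1.27, among them Sncg with 63.5 ± 20.4 TPM at 30 months and 304 ± 64.2 TPM at 24 months. Cav1, the caveolin gene, had 104 ± 14.8 TPM at 30 months and 379.8 ± 82.6 TPM at 24 months. White adipocyte markers had a median of -0.88 (15 of 17 negative). Fabp4, a fatty acid carrier, had 862 ± 306 TPM at 30 months and 2910.5 ± 577 TPM at 24 months, while Cfd, the adipsin gene, had 1216 ± 258 TPM at 30 months and 561 ± 76.9 TPM at 24 months. The 8 other annexins had a median of -0.96 (7 negative), with Anxa2 at 59.7 ± 4.96 TPM at 30 months and 177 ± 42.7 TPM at 24 months. Medians were -0.76 for 11 proteoglycan proteases and matrix genes, -0.52 for 15 retinoid genes, -0.51 for 23 Wnt ligands, inhibitors and targets, -0.50 for 11 imprinted growth genes, -0.35 for 7 leptin signalling genes and -0.31 for 4 natriuretic peptide genes, against -0.36 over all genes.

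After 1 week of CYP19A1 at 18 months no list had a passing gene either. The adiposity list had a median of -0.41 (7 of 11 negative), with Sncg at 85.4 ± 31.9 TPM after 1 week and 284 ± 26.2 TPM without, and the white adipocyte list -0.22, against 0.09 over all genes. The other receptors for natriuretic peptides did not share the low values of Npr3: Npr1 had 16.2 ± 1.27 TPM after 1 week and 13.0 ± 4.13 TPM without, and Npr2 had 17.3 ± 1.14 TPM after 1 week and 14.9 ± 3.41 TPM without. In long-induced glands of Esr1 against CYP19A1, 6 of the 160 tested list members passed (3.75%, against 4.15% of all tested genes), all lower: Adrb3, the adipocyte beta-3 adrenoceptor gene, with means of 21.7 TPM in Esr1 and 63.8 TPM in CYP19A1 glands, Gpd1 (127 TPM in Esr1, 238 TPM in CYP19A1), the Wnt antagonist gene Frzb (1.5 TPM in Esr1, 4.64 TPM in CYP19A1), the Wnt target Axin2 (3.91 TPM in Esr1, 6.86 TPM in CYP19A1), the brown fat gene Ucp1 (21.9 TPM in Esr1, 63.7 TPM in CYP19A1) and the endothelial receptor gene Kdr (13.6 TPM in Esr1, 22.6 TPM in CYP19A1). In uninduced glands, the Wnt antagonist gene Dkk2 passed as the only 1 of the 160, at 0.449 TPM in Esr1 and 0.999 TPM in CYP19A1 glands.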

How the data were processed

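Per the labels' protocols, the 48 libraries were stranded, made from whole-gland RNA after removal of ribosomal RNA, and sequenced as 75 bp single ends on a NextSeq 550. Named in the submitters' processing notes are the build mm10, RSEM 1.3.1, STAR 2.7.9a, Trim Galore 0.6.5 and FastQC 0.11.9. The annotation release is not given in the sources used here, and versioned identifiers of 55094 genes were found in GENCODE M21. The authors deposited 1 matrix of TPM, in which every library sums to 1 fixed total within rounding.

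Columns were joined to samples by the library name in each title. Log2(TPM + 1) of 20209 genes was fitted with limma 3.58.1 in R 4.3.3 (moderated, trend, two-sided), with 1 mean per group over all 48 libraries and no replicate block, and p-values were adjusted by Benjamini-Hochberg within a comparison. Libraries with the same replicate number were checked for shared deviations in 10 comparisons. In CYP19A1 glands of 30 against 24 months after long induction, r was 0.11 to 0.25 over the 3 pairs. After 1 week of CYP19A1 at 18 months it was 0.09 to 0.35. In the other comparisons not all pairs were positive. The script was tested on simulated data. Correlations used deviations from group means with 100000 permutations within groups. Marker and pathway lists numbered 16. The members, lists, comparisons and the rule for named genes (the members and Adipoq, the 5 genes most like each, and list members that passed or were among the 3 most abundant) were chosen with earlier results of these data known. Of the genes most like Aldh1a1, 1 is not reported here. Alternatives were a pseudocount of 0.1, no filter, median-of-ratios rescaling, only the groups compared, a replicate block, removal of the 9 libraries over 10% ribosomal RNA, and each replicate left out.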

Additional observations from a re-analysis of the deposited data

How the results depend on the processing

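Among long-induced Esr1 glands of 30 against 24 months, where 5 of the 7 genes passed (a description, since the genes may have been chosen on this contrast), 3 passed with no filter on low values, 3 with a replicate block, 0 with only the groups compared and between 0 and 4 with 1 replicate left out. After rescaling 4 passed (0.114% of all tested genes), and 5 without the libraries over 10% ribosomal RNA (0.421%). Between the models, 0 passed in long-induced glands with a pseudocount of 0.1 (0 to 1 with 1 replicate left out). In uninduced glands 1 (Anxa5) passed after rescaling, beside 16.7% of all tested genes, 1 (Anxa5) without the libraries over 10% ribosomal RNA, beside 12.7%, and 0 to 1 with 1 replicate left out. Uninduced Esr1 glands are among those on which the genes were chosen, so these counts support no difference. In the other 9 comparisons the count was 0 under every alternative run. Of the genes that did not overlap between uninduced ages, CYP19A1 glands had 1 after rescaling and 6 without the libraries over 10% ribosomal RNA for 18 against 12 months (3 to 6 with 1 replicate left out), 3 without those libraries for 24 against 18 months (1 to 3), and 6 without them for 24 against 12 months (3 to 6). In Esr1 glands of 18 against 12 months the range was 1 to 2. Of the 28 correlations, 22 to 27 passed with 1 replicate left out. Of 144 log2 differences of single genes, Adipoq included, 46 changed sign under an alternative. The largest of these, at 1.07, was Mest after 1 week of CYP19A1 at 12 months, at -0.30 without replicate 3 (-0.30 to 1.85), and the cause was not tested. Libraries with the same replicate number correlated between -0.34 and 0.35 in the 10 comparisons checked, which cannot show whether the numbers pair samples. All 3 pairs were positive in CYP19A1 glands of 30 against 24 months and after 1 week of CYP19A1 at 18 months. In both, the replicate block left the count at 0, and it changed no count but the one given. The comparison of CYP19A1 after 1 week at 12 months could not be fitted without the libraries over 10% ribosomal RNA, since all 3 induced ones exceed it. TPM hide the depth of each library.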
